A study of Mus musculus with 4 samples.

Results

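Among the cells of mouse 4T1 tumours, 1072 were fibroblasts that carried Dpt and no Lrrc15, and these Dpt-positive Lrrc15-negative fibroblasts are described here. A barcode was counted as such a cell if it held at least 300 genes, at most 15% mitochondrial transcripts, at least 1% of its transcripts from Col1a1, Col1a2 and Col3a1 together, at least 1 molecule of Dcn, at least 2 of Dpt, none of Lrrc15, none of Ptprc and under 3 of Rgs5. The 1072 cells were 3.34% (3.14 to 3.54, exact binomial 95% interval) of the 32133 cells that passed the limits on genes and mitochondrial transcripts, and 52.4% (50.2 to 54.6) of the 2045 fibroblasts that met the same limits on collagen, Dcn, Ptprc and Rgs5. The other gated fibroblasts were 694 cells with at least 1 molecule of Lrrc15, called Lrrc15-positive, and 279 cells with no Lrrc15 and at most 1 molecule of Dpt, called fibroblasts with neither. Dpt, Lrrc15, the 3 collagens, Dcn, Ptprc and Rgs5 chose the cells, so the members were chosen by these measured values and the values are given as a description only.

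The tumours were grown from 1000000 4T1 cells, a mouse mammary carcinoma line, under the skin of the right flank of female BALB/c mice aged 6 to 8 weeks. On day 7 the mice received an intravenous injection of PBS or of TIOs, a T cell-inspired oncolytic system built from macrophages that carry light-activated particles, and near-infrared (NIR) light of 980 nm at 1.0 W cm-2 was given for 5 min a day from day 8 to day 10, before collection on day 13. By the labels 2 samples were PBS plus NIR and 1 was TIOs plus NIR, all of them from irradiated tumour-bearing mice, and 1 sample had a title and a treatment text that disagree and was put in no group. The methods describe a flow sort on CD45, a surface protein of leucocytes and the product of Ptprc, so the number of fibroblasts and their share of the cells can reflect that sort. The 4 libraries of the joined matrix carry the numbers 1 to 4, and no source used here links a library to a sample, so treatments are not compared and no p-values are given. Values are given by library for the results the text turns on, and others are pooled over the 4 libraries. It is not stated how many mice stand behind a library.

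Dpt encodes dermatopontin, a small extracellular matrix protein that binds decorin. Fibroblasts rich in Dpt are found in most connective tissues, where they surround vessels and line the tissue planes, and they are regarded as a reserve from which more specialised fibroblasts arise; those near vessels carry Pi16, Cd34 and Ly6 surface proteins, and others carry Col15a1 and basement membrane genes. Lrrc15 marks fibroblasts of tumours that respond to TGF-beta and make contractile and matrix proteins. In mm10 (GRCm38) with the GENCODE vM21 annotation Dpt lies on the plus strand at chr1:164796644-164824266 and Lrrc15 on the minus strand at chr16:30269302-30283256, and both are protein-coding.

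The cells were found mostly outside library 1. Libraries 1 to 4 held 8, 506, 305 and 253 of them, which was 0.102%, 5.87%, 4.50% and 2.85% of their kept cells. Of the gated fibroblasts they made up 6.90% (3.02 to 13.1) in library 1, 48.1% (45.0 to 51.1) in library 2, 64.6% (60.1 to 68.9) in library 3 and 62.6% (57.7 to 67.4) in library 4. In library 1, 97 of 116 gated fibroblasts were Lrrc15-positive. Of the kept cells of library 1, 42.6% carried the tumour markers Epcam and Krt18, held no Ptprc and were not gated fibroblasts. These intervals cover counting error and not the spread between mice. Libraries 1 to 4 held 108646352, 81369540, 69255999 and 96493208 transcript molecules (UMIs) in all.

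**Figure D1:**
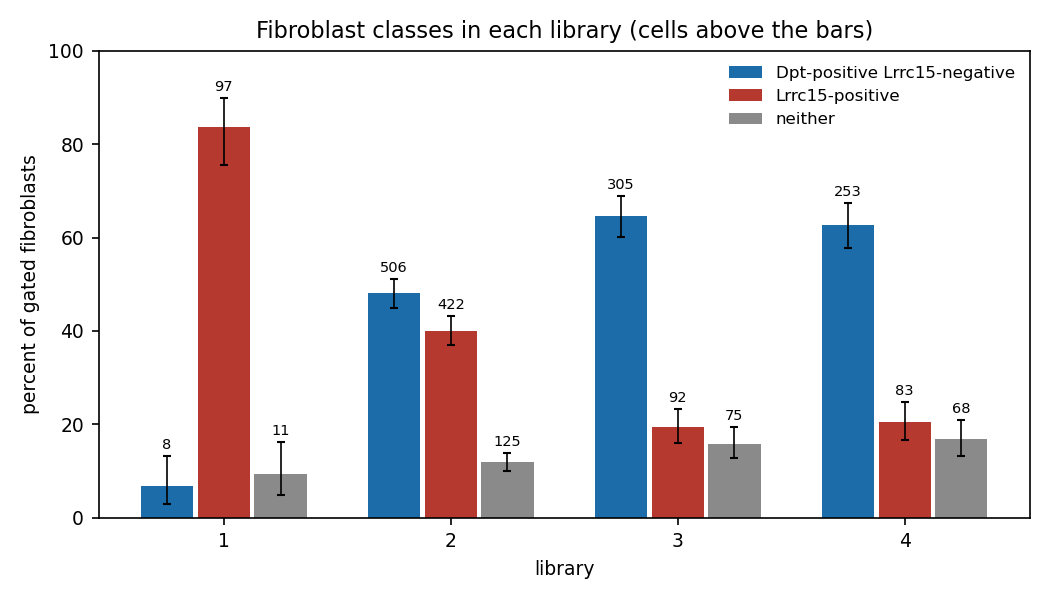
Share of gated fibroblasts (percent, vertical axis) in each fibroblast class for libraries 1 to 4, with exact 95% binomial intervals as error bars and the number of cells above each bar. Dpt-positive Lrrc15-negative cells make up 6.90% of the gated fibroblasts in library 1 and 48.1% to 64.6% in libraries 2 to 4.

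The cells were deeply sequenced. The median was 23252.5 molecules and 4995.5 genes per cell, against 28000.5 molecules in Lrrc15-positive cells and 7428 in fibroblasts with neither, and it was 11581, 18840, 25112 and 31465 molecules in libraries 1 to 4. Because a cell was admitted by the presence of Dpt and the absence of Lrrc15, depth bears on the choice. Of the cells without Lrrc15, those with no Dpt had a median of 4819 molecules (165 cells), those with exactly 1 of Dpt, just outside the limit, had 12690.5 (114 cells), and those with exactly 2, just inside it, had 23911.5 (92 cells). On the other side, 498 of the 694 Lrrc15-positive cells also held at least 2 molecules of Dpt, and in 185 of them a single molecule of Lrrc15 was all that kept them out. A member held a median of 8 molecules of Dpt, with 3 at the 10th and 24 at the 90th percentile and 72 at most.

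Fibroblast markers that the rule did not use were present. Pdgfra, the PDGF receptor of fibroblasts, was at 353, 368, 356 and 423 CPM (summed molecules scaled to a total of 1000000) in libraries 1 to 4. After each cell was reduced to 2000 molecules, 51.1% (48.1 to 54.2) of 1060 members still held Pdgfra, against 3.75% of 2189 neutrophils of the same libraries with at least that many. The median depth of all 4561 neutrophils was 1967 molecules, and the deepest held 230481. Gated fibroblasts were left out of them, but no other limit on collagen, Dpt or Ptprc was set. Of the 4561 neutrophils 104 held at least 2 molecules of Dpt, so mixed cells were not kept out. Sparc, a collagen-binding matrix protein, was the third most abundant gene at 9569 CPM, after Col3a1 and Col1a2 at 17425 and 9650 CPM. Dpt itself, which all members held by rule, was seen at 2000 molecules in 58.1% of members and 3.61% of neutrophils. Fibroblast transcripts were also counted in other cells. The 7 fibroblast markers outside the rule summed to 3889, 1862 and 2666 CPM in the neutrophils of libraries 2 to 4, and to 17735, 12273 and 11206 CPM in the members.

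Markers of other cell types were low but not absent. The 15 leucocyte markers summed to 822 CPM in the members and 19527 CPM in neutrophils. Ptprc was at 0 by rule, and the most abundant were Srgn, a proteoglycan of leucocyte granules, at 201 CPM and Cd3e at 162 CPM. By library the leucocyte sum was 2573, 811, 530 and 1119 CPM. The 8 neutrophil markers summed to 572 CPM, led by S100a9 at 256 CPM, and none was at 0. Of the 12 epithelial markers only Krt5 was at 0, and their sum of 242 CPM was led by the secreted protein Lcn2 at 209 CPM. The sums were 55.9 CPM for 10 endothelial markers (most abundant Plvap, none at 0), 585 CPM for 12 pericyte and smooth muscle markers (Ndufa4l2, none at 0), 142 CPM for 8 adipocyte markers (Fabp4, with Cidec and Lep at 0), 13.0 CPM for 8 Schwann cell markers (S100b, none at 0), 29.3 CPM for 7 mesothelial markers (Wt1, with Lrrn4, Muc16 and Upk1b at 0) and 11.6 CPM for 9 muscle markers (Tnni2, with Myh1 at 0). The 9 cartilage and tendon markers summed to 457 CPM, led by Thbs4, thrombospondin 4, at 382 CPM, and none was at 0.

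Adventitial genes, those of fibroblasts around vessels, were abundant. Ly6a, the surface protein Sca-1, was at 1800, 2015, 1854 and 3901 CPM in libraries 1 to 4, highest in library 4. Pi16, a secreted peptidase inhibitor, was at 1689, 1371, 446 and 633 CPM, and its highest value among the 3 large libraries was in library 2. Cd34 was at 210, 381, 151 and 230 CPM in the same order. The 20 genes of the adventitial list summed to 7877 CPM, with none at 0. Secreted immune mediators were also among the leading genes, with Saa3, an acute-phase protein, at 3029 CPM, the monocyte chemokine Ccl2 at 2716 CPM, Cxcl14 at 2362 CPM, the neutrophil chemokine Cxcl1 at 2153 CPM and Cxcl12, which retains CXCR4-bearing cells, at 1283 CPM.

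Members were set against each of the other classes within libraries 2, 3 and 4, which held at least 20 cells of each; library 1 had only 8 members. A gene was counted as higher or lower if (CPM + 10) differed at least 2-fold in all 3 libraries, and the 8 genes of the rule were left out. Against Lrrc15-positive cells this held for 5 of 8484 genes in the direction of the members, which is 0.0589%, and for 1 gene, or 0.0118%, in the other. Genes that were higher in all 3 libraries by any amount were 22.5% of those tested, and genes that were lower by any amount 16.1%, which is the background for the gene lists below. These counts are a description of the libraries and carry no test.

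The 5 genes were Apod, Aldh1a2, Entpd2, C3 and Cxcl14. Apod, a lipid-binding lipocalin, was at 754, 744 and 103 CPM in the members of libraries 2, 3 and 4 and at 204, 92.7 and 36.1 CPM in Lrrc15-positive cells. The log2 ratios were 1.84, 2.88 and 1.29. In library 3 the Apod level of fibroblasts with neither was higher still, at 3279 CPM. Aldh1a2, which makes retinoic acid, was at 137, 131 and 94.1 CPM against 24.5, 46.0 and 37.6 CPM. Entpd2, an ectonucleotidase that splits extracellular ATP, was at 121, 90.9 and 39.9 CPM against 36.2, 25.3 and 12.7 CPM. C3, the central complement protein, was at 2257, 909 and 731 CPM against 1116, 402 and 230 CPM, and its highest level in both classes was in library 2. Cxcl14 was at 2575, 3348 and 1075 CPM against 1006, 1511 and 508 CPM. The gene on the other side was Serpinb2, an inhibitor of urokinase, at 234, 137 and 110 CPM in members and 714, 357 and 308 CPM in Lrrc15-positive cells. Serpinb2 came from few cells, since the tenth of members with the most held 97.4% of its molecules at 2000 per cell. When Lrrc15-positive cells were limited to those with at least 3 molecules of Lrrc15, 22 genes were higher, among them 4 of the 5, and Serpinb2 was no longer counted. With sums over cells reduced to 2000 molecules Apod and C3 were still counted, and Aldh1a2, Entpd2, Cxcl14 and Serpinb2 were not. Among cells with at least 10000 molecules C3 was no longer counted, and Apod, Aldh1a2, Entpd2, Cxcl14 and Serpinb2 were.

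Genes of the Col15a1-type parenchymal fibroblast stood higher in the members than in Lrrc15-positive cells. Of 14 tested genes of that list 10 were higher than in Lrrc15-positive cells in all 3 libraries and none was lower in all 3, with a median log2 ratio of 1.02 against 0.01 over all genes. Lpl, lipoprotein lipase, was at 1340, 1274 and 1135 CPM against 554, 711 and 510 CPM. Mgp, an inhibitor of calcification, was at 469, 378 and 47.4 CPM against 89.4, 31.8 and 26.0 CPM, so its level in members was far lower in library 4. Cxcl12 was at 1156, 1372 and 1372 CPM against 976, 1026 and 754 CPM, a smaller difference that had the same direction in each library. Col15a1 was higher in libraries 2 and 3 but level in library 4, with log2 ratios of 0.80, 0.68 and -0.02. The adventitial list differed less from Lrrc15-positive cells, with 4 of 17 genes higher, 1 lower and a median of 0.11. Cd34 and Ly6c1 were among the genes that were higher, and the log2 ratios of Pi16 were 0.28, -0.06 and 1.36.

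Complement and chemokine genes leaned the same way in this comparison. Of 12 complement genes 9 were higher in all 3 libraries than in Lrrc15-positive cells and none was lower in all 3 (median log2 ratio 0.49). The proteases of the classical pathway C1ra and C1s1 had ratios of 0.20, 0.40 and 0.64 and of 0.46, 0.67 and 0.69 on the log2 scale, and Serping1, which inhibits them, 0.15, 0.48 and 0.89. Of 25 chemokines and cytokines 12 were higher and none was lower in all 3 libraries (median 0.28). Against fibroblasts with neither 10 of 26 were higher and 7 lower, where 23.5% of all tested genes were higher and 14.6% lower. Saa3 went in different directions, at 4321, 1477 and 2866 CPM in members and 11056, 2667 and 575 CPM in Lrrc15-positive cells of libraries 2, 3 and 4, so it was lower in libraries 2 and 3 and higher in library 4. Immediate-early genes, which cells switch on within minutes of stimulation or handling, were higher in 17 of 20 cases and lower in none (median 0.34). Fos was at 1693, 1251 and 958 CPM against 1256, 720 and 708 CPM, and Fosb at 1062, 1025 and 405 CPM against 709, 682 and 228 CPM. Neutrophils carried these genes as well, with a sum of 18011 CPM over the 20 genes against 12064 CPM in the members, and 4 of 5 tested neutrophil markers and 6 of 13 tested leucocyte markers were higher in the members than in Lrrc15-positive cells in all 3 libraries, with none lower. The part of tissue handling or of leucocyte RNA in these values was not tested.

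Myofibroblast genes were lower in the members than in Lrrc15-positive cells. Against fibroblasts with neither the balance differed, with 11 of 26 higher in all 3 libraries and 5 lower (median log2 ratio 0.15). Of all genes tested in that comparison 23.5% were higher and 14.6% lower. Against Lrrc15-positive cells 16 of 27 tested genes were lower in all 3 libraries and 4 were higher, with a median log2 ratio of -0.37. Cthrc1, a secreted protein of collagen-producing fibroblasts, was at 305, 186 and 130 CPM against 589, 416 and 294 CPM. Tnc, the matrix protein tenascin C, was at 595, 812 and 216 CPM against 1590, 1120 and 428 CPM. Acta2, smooth muscle actin, was at 251, 134 and 70.8 CPM against 280, 156 and 183 CPM, so the difference was small in libraries 2 and 3. Inhba, a subunit of activin, was at 108, 171 and 28.7 CPM against 308, 274 and 33.5 CPM. Col8a1 was among the 4 genes that were higher, at 211, 225 and 130 CPM against 138, 147 and 111 CPM.

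Against fibroblasts with neither, 13 of 8584 genes (0.151%) were at least 2-fold higher in the members in all 3 libraries and 25 (0.291%) at least 2-fold lower. By any amount, 23.5% of the tested genes were higher in all 3 libraries and 14.6% lower. The 13 genes included 3 WNT inhibitors. Sfrp4 was at 252, 99.1 and 88.5 CPM in members and at 53.1, 8.56 and 16.3 CPM in the other class. Sfrp1 was at 274, 270 and 108 CPM against 90.5, 79.6 and 17.9 CPM, and Sfrp2 at 627, 663 and 698 CPM against 302, 259 and 328 CPM. With at least 3 molecules of Dpt required of a member, Sfrp4 was still at least 2-fold higher in all 3 libraries, and Sfrp1 and Sfrp2 were not. Of the 17 tested WNT and BMP antagonists and ligands 10 were higher and 4 lower by any amount, with a median log2 ratio of 0.37 against 0.04 over all genes. The growth factor Igf1 was at 399, 325 and 217 CPM against 131, 126 and 17.1 CPM. Clec3b, a plasminogen-binding lectin of adventitial cells, was at 968, 150 and 474 CPM against 155, 41.1 and 192 CPM. Gas6, the ligand of the TAM receptors, was at 348, 310 and 31.9 CPM against 131, 77.0 and 5.70 CPM, and the sulphatase gene Arsi at 75.3, 47.5 and 72.2 CPM against 19.7, 6.85 and 21.2 CPM. With sums over reduced cells Sfrp4, Sfrp1, Igf1, Clec3b, Gas6 and Arsi were still counted and Sfrp2 and Postn were not, and when the rule was applied at 2000 molecules Clec3b was the only 1 of the 13 genes still counted. Postn, the matrix protein periostin, was higher than in fibroblasts with neither (log2 ratios 1.79, 1.00 and 1.10) and lower than in Lrrc15-positive cells (-0.24, -0.43 and -0.76).

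**Figure D2:**
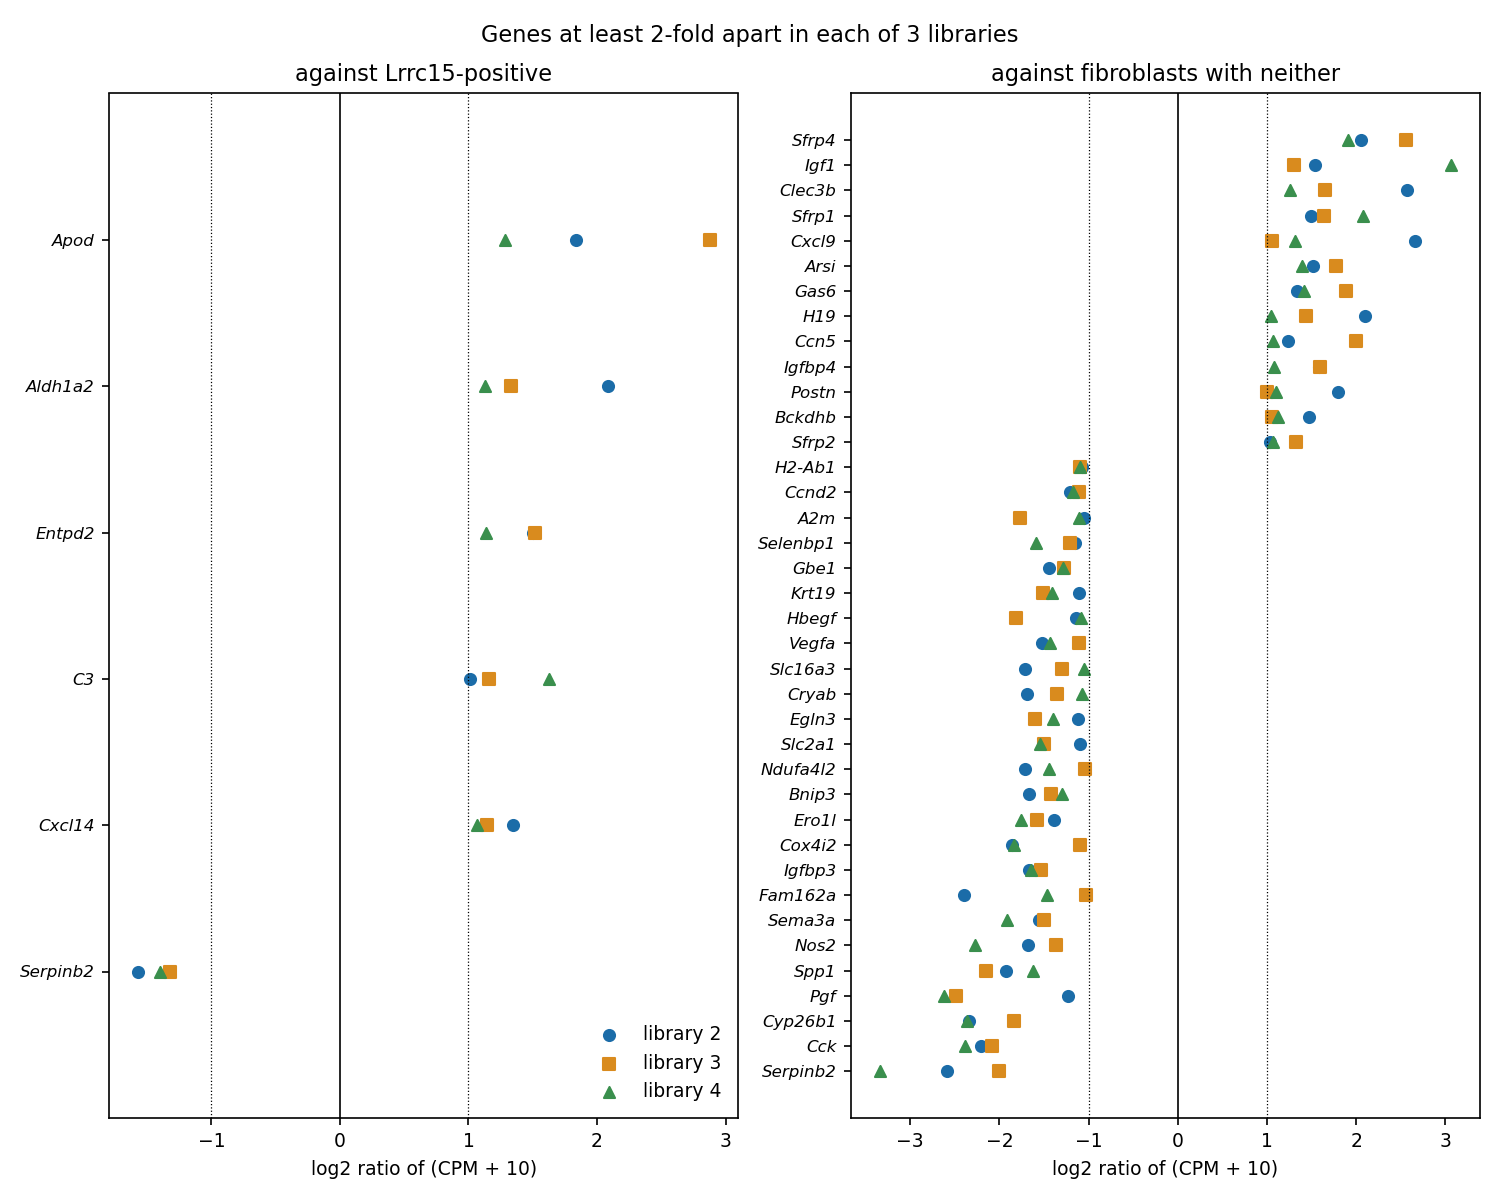
Log2 ratios of (CPM + 10), members over the compared class (horizontal axis), for each gene at least 2-fold apart in libraries 2, 3 and 4, with 1 symbol per library and dotted lines at 2-fold. The left panel holds 5 genes higher and 1 lower than in Lrrc15-positive cells, the right panel 13 higher and 25 lower than in fibroblasts with neither.

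Glycolysis and hypoxia genes were lower in the members than in both other classes. These genes bring glucose into the cell, split it and export lactate, or are switched on by the HIF transcription factors at low oxygen. Of 26 genes, all of which were tested, 24 were lower than in fibroblasts with neither in all 3 libraries and none was higher in all 3, with a median log2 ratio of -0.87, and 6 of the 25 genes that were at least 2-fold lower belong to the list. Against Lrrc15-positive cells 20 of the 26 were lower, 2 (Hk2 and Adm) were higher and the median was -0.36. Bnip3, a mitophagy receptor, was at 63.0, 105 and 138 CPM in members, 150, 196 and 215 CPM in Lrrc15-positive cells and 222, 299 and 353 CPM in fibroblasts with neither. Slc2a1, the glucose transporter GLUT1, was at 53.6, 68.8 and 60.6 CPM, then 87.9, 107 and 89.6 CPM, then 126, 213 and 196 CPM. Slc16a3, which exports lactate, was at 78.7, 128 and 171 CPM, then 157, 201 and 281 CPM, then 282, 330 and 366 CPM. Pgk1, a glycolytic enzyme, was at 443, 820 and 825 CPM, then 666, 1152 and 985 CPM, then 1224, 1512 and 1478 CPM. The same order of the 3 classes held for these 4 genes in each library. Egln3, a prolyl hydroxylase that marks HIF for decay, was low in members, at 9.89, 11.6 and 9.80 CPM, with 24.3, 22.7 and 12.7 CPM in Lrrc15-positive cells and 33.3, 55.6 and 42.4 CPM in fibroblasts with neither. Vegfa was at 105, 128 and 107 CPM against 321, 287 and 305 CPM in fibroblasts with neither, while its level in Lrrc15-positive cells of library 4 was 101 CPM.

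Depth differed between these classes, so the counts were repeated in cells with at least 10000 molecules, where the medians were 26984 in 903 members and 26568 in 119 fibroblasts with neither. There 24 of 26 glycolysis and hypoxia genes were again lower in all 3 libraries, the median log2 ratio was -0.94, and 13.8% of all tested genes were lower by any amount. With every cell reduced to 2000 molecules, which gives each cell the same weight, 23 were lower and 2 were higher (median -0.72, with 14.2% of all tested genes lower). Against Lrrc15-positive cells the numbers lower were 20 in the deep cells and 16 in the reduced ones. Markers of leucocytes were also lower than in fibroblasts with neither, with 2 of 5 neutrophil and 3 of 12 leucocyte markers lower in all 3 libraries and none higher, and 5 of 7 and 5 of 13 lower in the reduced cells. Among the deep cells none of 5 neutrophil and none of 12 leucocyte markers was lower in all 3 libraries. The 26 glycolysis and hypoxia genes summed to 9379, 11123 and 11092 CPM in neutrophils of libraries 2, 3 and 4, against 6926, 10794 and 11747 CPM in members and 14558, 18388 and 19482 CPM in fibroblasts with neither.

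Of the 6 glycolysis and hypoxia genes that were at least 2-fold lower than in fibroblasts with neither, Ero1l alone was still counted with sums over reduced cells, and none was when the rule itself was applied at 2000 molecules. In the reduced cells 12 of 14 genes of the Col15a1-type list and 16 of 20 immediate-early genes were higher than in Lrrc15-positive cells, as were 12 of 26 chemokines and cytokines, with 4 lower, where 17.8% of all tested genes were higher and 14.6% lower.

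**Figure D3:**
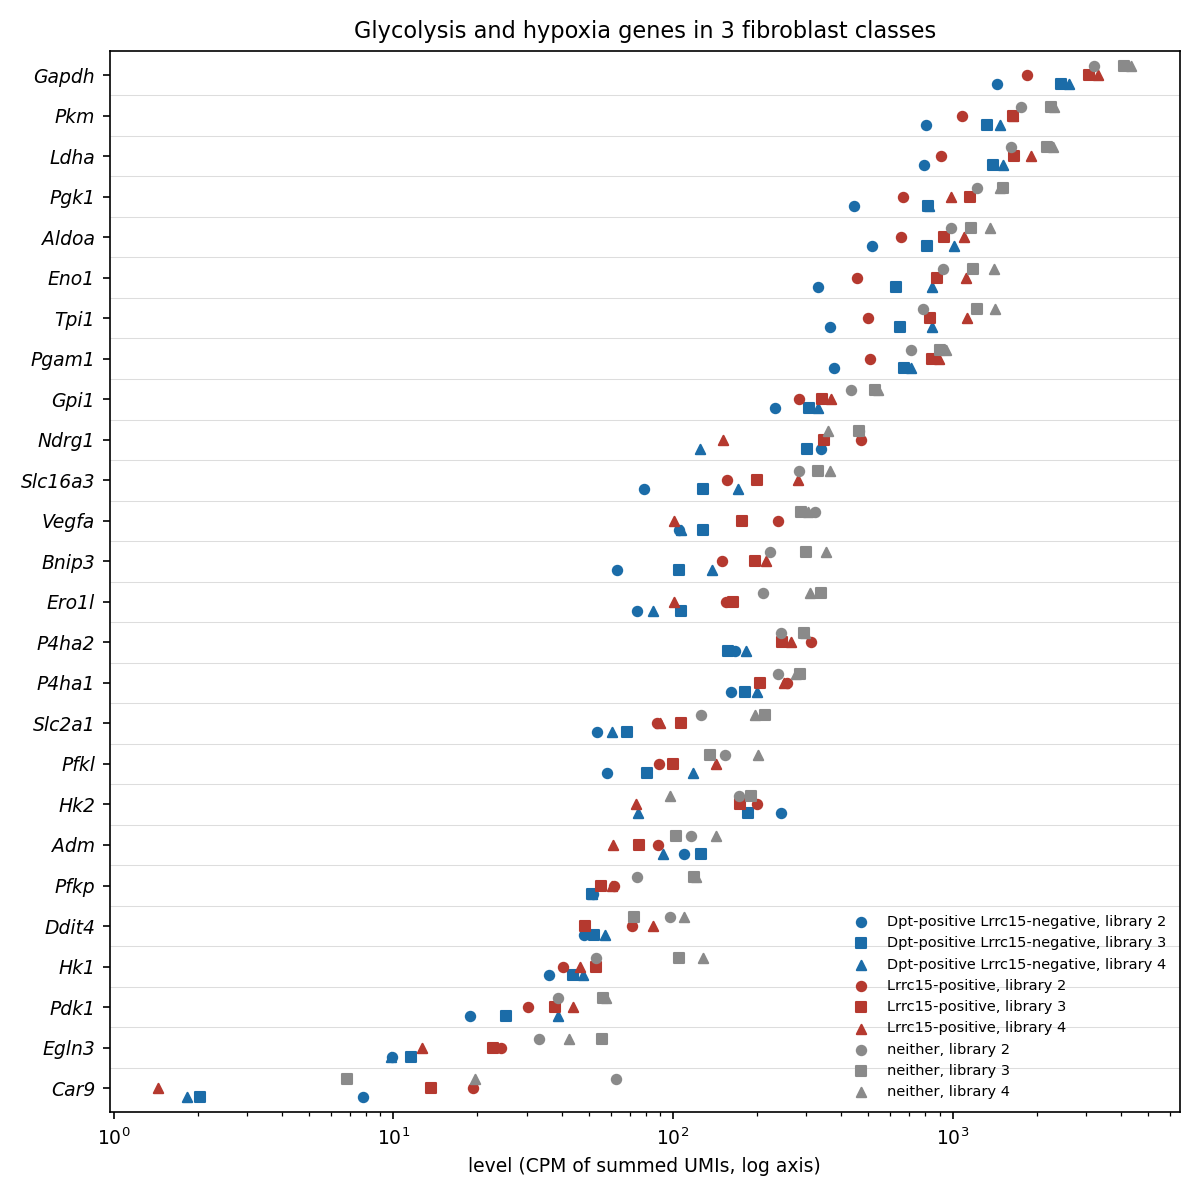
Level (CPM of summed molecules, log axis) of the 26 glycolysis and hypoxia genes in members (blue), Lrrc15-positive cells (red) and fibroblasts with neither (grey), with a circle, square or triangle for library 2, 3 or 4. Blue points lie to the left of grey points of the same library for 24 of the 26 genes.

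Because these genes were lower together, the promoters of the genes at least 2-fold lower than in fibroblasts with neither were searched for the core letters of the hypoxia response element, ACGTG or GCGTG on either strand. RefSeq (GRCm38.p6) sequences from 250 bases before to 50 bases after the start were found for 15 of the 25 genes that were at least 2-fold lower, and 9 of the 15 (60.0%) held the letters, against 43.8% of 27025 genes with such a sequence and 3 of 7 genes at least 2-fold higher. The 25 genes were chosen from these same data, and 6 of them are in the glycolysis and hypoxia list. The difference between these shares was not tested. Of the 6, Ero1l had no sequence and Vegfa held none of the letters in the 250 bases before its start. For Slc2a1, Slc16a3, Bnip3 and Egln3 the match nearest before the start is shown in capitals, read 5′ to 3′ on the strand of the gene.
Slc2a1, plus strand, chr4:119108691-119108731: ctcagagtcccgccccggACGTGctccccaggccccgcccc
Slc16a3, plus strand, chr11:120949035-120949066: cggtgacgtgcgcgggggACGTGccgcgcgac
Bnip3, minus strand, chr7:138909519-138909559: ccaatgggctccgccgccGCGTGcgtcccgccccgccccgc
Egln3, minus strand, chr12:54204081-54204121: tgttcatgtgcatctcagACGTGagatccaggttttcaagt
The matches begin 36, 14, 35 and 229 bases before the start, in that order. A match of 5 letters describes the sequence and was not tested as a binding site.

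Further genes were lower than in fibroblasts with neither. Serpinb2 had log2 ratios of -2.58, -2.01 and -3.34, with levels in fibroblasts with neither of 1451, 578 and 1212 CPM. Cyp26b1, which breaks down retinoic acid, was at 31.7, 33.1 and 44.3 CPM against 202, 144 and 271 CPM, while Aldh1a2, which makes it, was higher in the members in each library (log2 ratios 0.33, 0.26 and 0.71). Cck, the gene of the peptide hormone cholecystokinin, was at 2.18, 1.43 and 1.71 CPM against 46.3, 38.5 and 51.3 CPM. Spp1, osteopontin, was at 346, 796 and 546 CPM against 1341, 3579 and 1707 CPM, and neutrophils carried Spp1 as well, in 57.9% of cells at 2000 molecules against 27.8% of members. The guidance factor Sema3a was at 7.80, 12.7 and 7.84 CPM against 42.2, 53.9 and 57.0 CPM, and Igfbp3, a carrier of IGF proteins, at 91.7, 90.4 and 37.9 CPM against 314, 281 and 139 CPM. With sums over reduced cells, and with the rule applied at 2000 molecules, Serpinb2, Cyp26b1 and Spp1 stayed at least 2-fold lower in all 3 libraries. Cck, Sema3a and Igfbp3 did not. When the cells with the highest 5% of doublet scores (Scrublet) in each library were removed, Spp1 was no longer counted. Serpinb2, Cyp26b1, Cck, Sema3a and Igfbp3 still were. Scrublet did not work in libraries 2 and 3, where it marked 0.0116% and 0% of cells. The removal therefore cannot show the part of doublets in these ratios. The metallothioneins Mt1 and Mt2, which bind zinc, had log2 ratios of -0.91, -0.50 and -0.82 and of -0.86, -0.46 and -0.69.

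Members differed among themselves in Pi16. At 2000 molecules per cell 50.2% (47.1 to 53.2) of 1060 members held Pi16, against 46.8% of Lrrc15-positive cells and 13.3% of neutrophils, and 83.7% held it when all molecules were used. The share was 63.1%, 37.3% and 39.9% in libraries 2, 3 and 4, against 59.9%, 37.0% and 15.9% of Lrrc15-positive cells and 42.0%, 21.9% and 50.9% of fibroblasts with neither, so the order of the classes differed between libraries. Members with Pi16 were shallower than those without, with medians before the reduction of 17128 and 24435 molecules in library 2, 17683 and 31530.5 in library 3 and 24642 and 34800.5 in library 4. Between the 313, 113 and 101 members with Pi16 and the 183, 190 and 152 without, 102 genes of the adventitial, parenchymal, myofibroblast, proteoglycan, complement and chemokine lists with at least 20 CPM were compared at equal depth. In all 3 libraries 48 were higher with Pi16 and 19 were lower. Over all 6606 genes at that level 16.9% were higher and 26.5% lower, with Pi16 and the rule genes left out.

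Of the lists, 12 of 16 adventitial and 12 of 12 complement genes were higher beside Pi16 in all 3 libraries and none was lower. Of 25 myofibroblast genes 7 were higher and 12 lower, and of 23 chemokines and cytokines 8 were higher and 5 lower. Cd34 was at 652, 372 and 550 CPM with Pi16 and 224, 121 and 138 CPM without. Sema3c, a guidance factor, was at 385, 75.2 and 282 CPM against 62.8, 21.1 and 36.2 CPM, and Clec3b at 1752, 478 and 1441 CPM against 634, 78.9 and 326 CPM. C3 was at 3570, 2854 and 1515 CPM against 1760, 692 and 641 CPM, and Saa3 at 6014, 3137 and 5144 CPM against 1079, 671 and 2408 CPM. Acta2 was lower beside Pi16, at 76.7, 31.0 and 24.8 CPM against 224, 163 and 92.1 CPM, as was Tpm2, a tropomyosin of contractile cells, at 35.1, 53.1 and 34.7 CPM against 115, 105 and 132 CPM. The 7 that were higher included Postn, with log2 ratios of 0.51, 0.25 and 0.66, and Cthrc1, with 0.75, 0.21 and 0.85. The cytokine Il11 had log2 ratios of -1.21, -1.30 and -1.28. Col15a1 was not among the genes with 1 direction in all 3 libraries. Cxcl14 was lower with Pi16 in libraries 2 and 4, with log2 ratios of -1.10 and -2.02, and nearly level in library 3, at -0.03.

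Some genes sat in a small number of members. At 2000 molecules the tenth of members with the most held 92.2% of Thbs4 molecules, 68.5% of Saa3 and 69.5% of Apod. The share was 22.7% for Col3a1, a far more abundant gene with a median of 34 molecules per cell. Fmod, a collagen-binding proteoglycan, was found in 2.36% of members, with up to 50 molecules in a cell. Cells with a molecule of the proliferation genes Mki67 or Top2a at 2000 molecules were 13.3% (11.3 to 15.5) of members, 12.5% of Lrrc15-positive cells and 12.8% of fibroblasts with neither. In Lrrc15-positive cells it was 9.26%, 15.2% and 31.7% (21.9 to 42.9) in libraries 2, 3 and 4, and in fibroblasts with neither 11.4%, 14.1% and 14.0%. In members the share was 8.67% (6.35 to 11.5) in library 2, 16.8% (12.8 to 21.5) in library 3 and 18.6% (14.0 to 23.9) in library 4. Of neutrophils 6.26% held either gene at the same depth, and 4.23%, 7.50% and 6.19% in libraries 2, 3 and 4. Mixed cells were not removed from the neutrophils, so these shares are no clean background for the shares in fibroblasts. The spread between mice behind these shares is not known.

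Levels in the members differed between libraries, and many matrix and immune genes were among those that did. Of 8292 genes with at least 10 CPM, 368 (4.44%) differed at least 2-fold on the (CPM + 10) scale between the highest and the lowest of libraries 2, 3 and 4, and library 2 was the highest for 228 of them (2.75%), library 3 for 70 (0.844%) and library 4 for 70 (0.844%). The median spread over all genes was 1.23-fold. At least 2-fold spread was seen in 9 of 12 complement genes and 8 of 13 proteoglycans and partners, each time with library 2 highest. It was also seen in 16 of 25 chemokines and cytokines, with library 2 highest in 11. A highest level in library 2 was not particular to the members. The summed complement genes were at 3813, 1672 and 1043 CPM in Lrrc15-positive cells and 2477, 1631 and 2151 CPM in fibroblasts with neither. The summed collagen genes were at 63221, 41827 and 28915 CPM and at 33492, 25456 and 21965 CPM in these classes. Col1a1, a rule gene, was at 11998, 6777 and 3976 CPM and Dpt, also a rule gene, at 698, 314 and 264 CPM in the same order of libraries. Thbs4 was at 723, 274 and 38.2 CPM, Mfap4, a microfibril protein, at 228, 100 and 9.43 CPM and Fmod at 115, 67.0 and 0.735 CPM. Each of these 3 was highest in library 2 and lowest in library 4, and Thbs4 and Fmod came from few members, as given above. Clec3b took another order, with 968, 150 and 474 CPM, and the hyaluronan synthase Has1 was at 620, 371 and 107 CPM. At least 2-fold spread was seen in 1 of 27 growth factor receptors and 2 of 33 mesenchymal transcription factors, close to the share over all genes.

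Interferon-stimulated genes had their highest summed level in library 4. Of 21 tested 8 spread at least 2-fold and 7 of these were highest there. Isg15, a ubiquitin-like protein, was at 143, 85.2 and 359 CPM in libraries 2, 3 and 4, Bst2, which tethers viruses to the membrane, at 194, 108 and 449 CPM, and Ifi27l2a at 424, 245 and 834 CPM. Neutrophils carried Isg15 in 72.2% of cells at 2000 molecules, against 20.2% of members. Among libraries 2 to 4 leucocyte markers had their highest sum in library 4 as well, with Lyz2, the lysozyme of macrophages and neutrophils, at 86.4, 42.2 and 320 CPM and 6 of 12 tested leucocyte markers at least 2-fold apart with library 4 highest. The part of leucocyte RNA in the interferon values was not tested. Ly6a, given above, was highest in library 4 too.

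**Figure D4:**
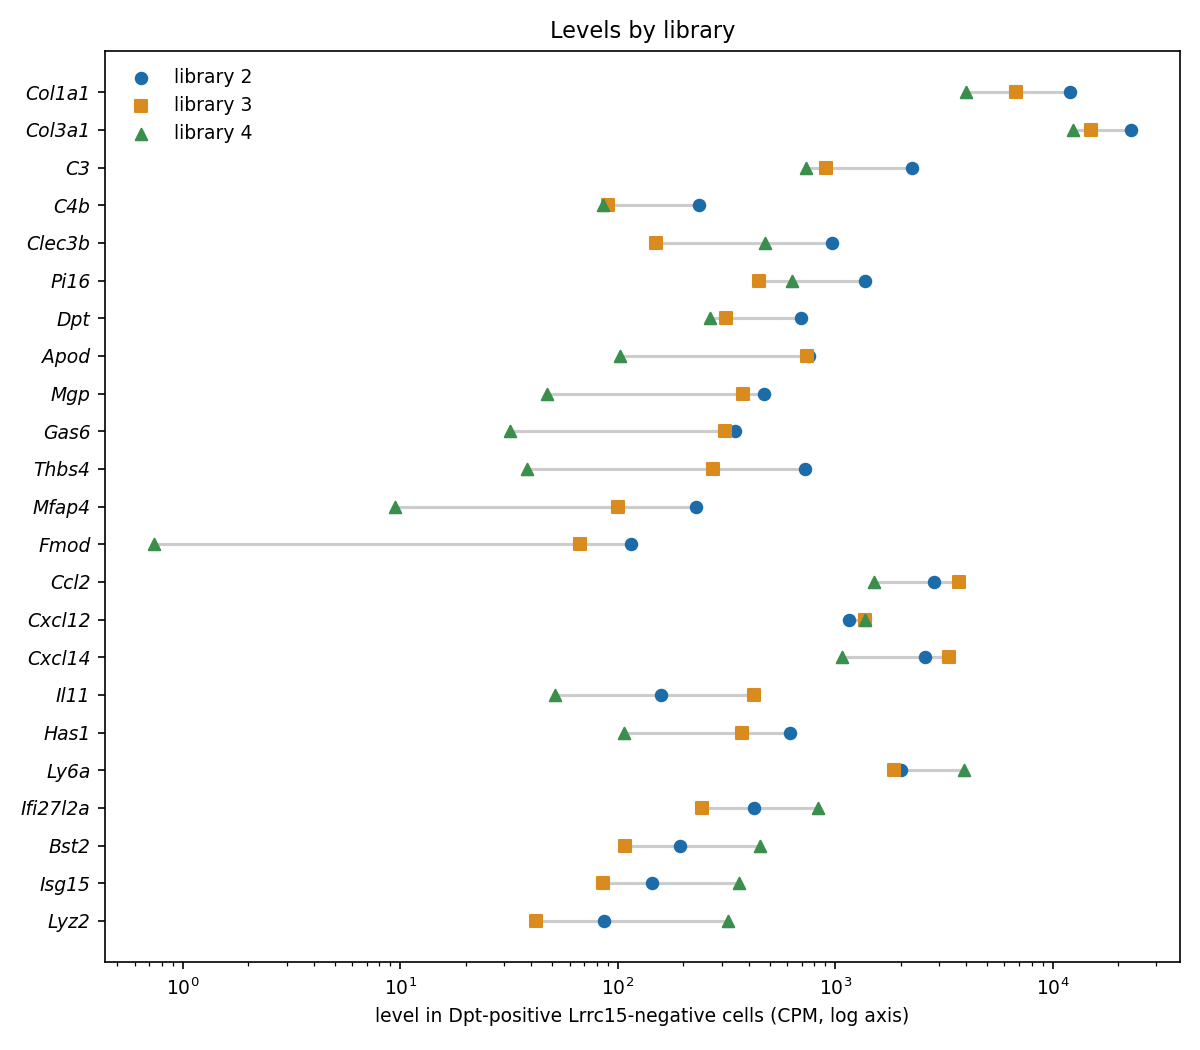
Level of 23 genes in the Dpt-positive Lrrc15-negative cells (CPM of summed molecules, log axis) in libraries 2, 3 and 4, joined by a grey line from lowest to highest. Thbs4, Mfap4 and Fmod are lowest in library 4, at 38.2, 9.43 and 0.735 CPM, while Isg15, Bst2, Ifi27l2a and Lyz2 are highest there.

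Cd3e encodes a chain of the T cell receptor complex. In the fibroblasts of libraries 2 to 4 it was far higher than Cd3d, Cd3g and Trac, the 3 other examined genes of the complex. In members it was at 44.2, 259, 160 and 36.4 CPM in libraries 1 to 4, and in Lrrc15-positive cells at 7.85, 436, 336 and 20.2 CPM. In T cells, taken as cells with Cd3d, Trac and Ptprc, it was at 503, 545 and 484 CPM in libraries 2, 3 and 4. Cd3d was at 595, 667 and 632 CPM in those T cells and at 0.544, 1.08 and 0.490 CPM in the members. As Cd3d and Trac chose the T cells, their levels there are raised by that choice. Cd3g, which did not choose them, was at 753, 765 and 1026 CPM in the T cells. Cd3g and Trac were at most 0.836 and 2.99 CPM in the members of these libraries. In Lrrc15-positive cells of library 1 the gap was smaller, with Cd3d, Cd3g and Trac at 2.24, 0.561 and 3.93 CPM. At 2000 molecules 16.3% (14.1 to 18.7) of members held Cd3e and none of 1060 held Cd3d, which allows a share of cells with a molecule of up to 0.347% (exact 95% limit) at this depth and is no limit on cells that express the gene. With all molecules 1.77% of members held Cd3d. In neutrophils, 2.42% held Cd3e and 3.24% Cd3d. The tenth of members with the most held 82.4% of the Cd3e molecules, with up to 12 in a cell. Cd3d, Cd3g and Trac were examined after the Cd3e values had been seen.

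Cd3e lies on the minus strand at chr9:44998740-45009627. GENCODE vM21 places 2 other genes within it, the antisense transcript Gm48719 and, on the same strand, Gm48720 at chr9:45008142-45009347, which were looked up for their place. Gm48719 was at 0.0907, 0 and 0 CPM in members of libraries 2, 3 and 4 and Gm48720 at 21.1, 10.9 and 5.88 CPM. Reads that overlapping genes of the same strand share cannot be assigned with certainty from these counts.

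**Figure D5:**
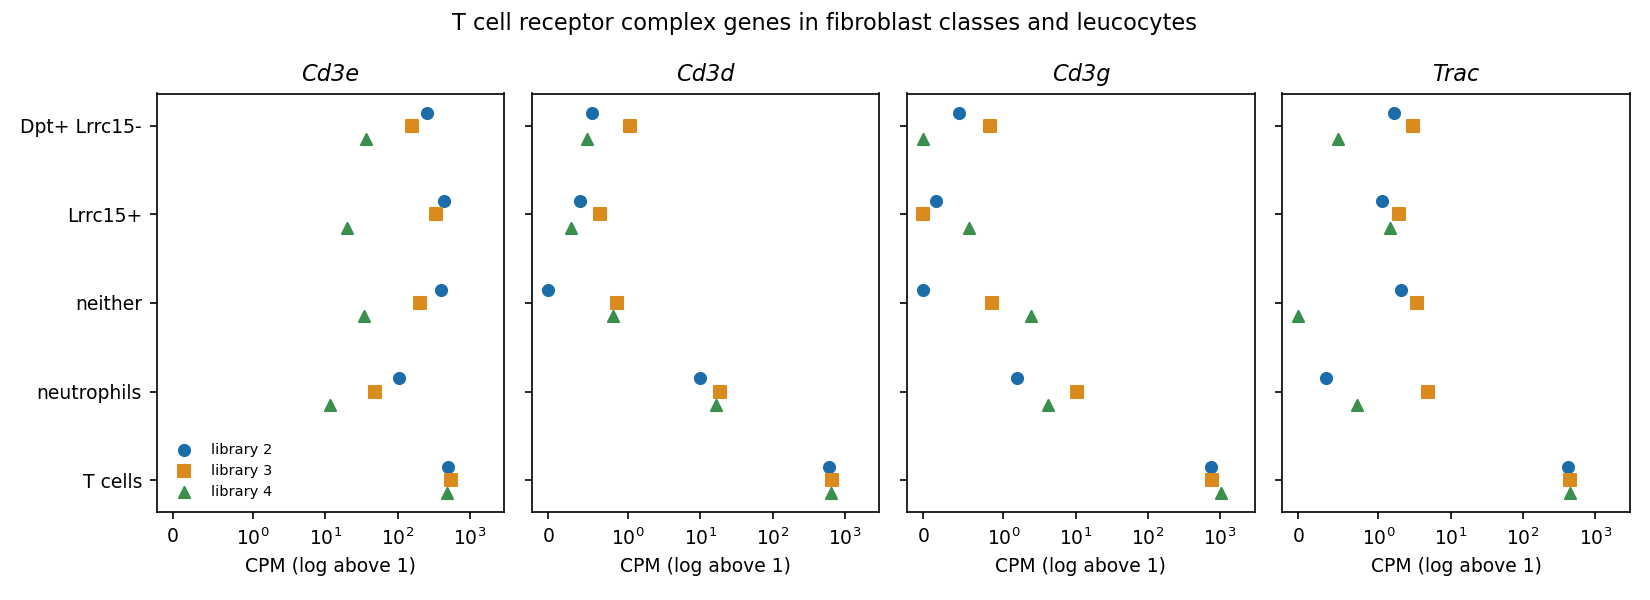
Level (CPM of summed molecules, horizontal axis, linear below 1 and logarithmic above) of Cd3e, Cd3d, Cd3g and Trac in the 3 fibroblast classes, neutrophils and T cells of libraries 2, 3 and 4. Cd3e reaches 259 CPM in members of library 2, while Cd3d, Cd3g and Trac stay below 3 CPM in members of all 3 libraries.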

How the data were processed

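The authors deposited 1 joined matrix of UMI counts, not normalized, for 55450 genes and 33064 barcodes, made with Cell Ranger. Version 6.1.2 is given in the matrix header, 3.0.2 in the extract protocol and 2.1.1 in the submitters' processing notes, which name mm10; no source used here says whether depth was equalised between libraries. All gene identifiers were found in GENCODE vM21. Counts of a class were summed per library and scaled to CPM; as the assay counts 3′ ends, no length scaling was used. Ratios were log2 of (CPM + 10), for genes with at least 10 CPM in either class. Shares at equal depth were taken after drawing 2000 UMIs per cell, which left out 12 members, 4 Lrrc15-positive cells, 61 fibroblasts with neither and 2372 neutrophils (cells with Csf3r and Cxcr2). Binomial intervals are exact (Clopper-Pearson) and cover counting error only. Barcode sequences shared by 2 libraries numbered 101, and 5 members had one. Scrublet (scanpy 1.11.5) marked 2.75%, 0.0116%, 0% and 1.73% of cells in libraries 1 to 4 and no member; in libraries 2 and 3 it did not work, and doublets were kept, apart from cells with Ptprc. The members and the gene lists were chosen with earlier results of these data known. Beyond the lists, the genes named were those furthest apart within each comparison (up to 12 in each direction against Lrrc15-positive cells and 6 against fibroblasts with neither) and the 10 most abundant. Steps were tested on simulated data. Python 3.11.15, numpy 2.4.6, scipy 1.17.1 and pandas 2.3.3 were used.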

Additional observations from a re-analysis of the deposited data

Results flagged for a closer look

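Cells with collagen and a Ptprc molecule were left out of all fibroblast classes. Of these cells 468 met every other condition for Dpt-positive Lrrc15-negative fibroblasts. The neutrophils and T cells used for comparison had no limit on collagen, so such cells were not kept out of those sets. The 468 cells came to attention as a signal in cells outside the fibroblast classes. Their median was 36677.5 molecules, against 23252.5 in the 1072 members, and 537 of the 870 gated cells left out for Ptprc held exactly 1 molecule of it. Lyz2 was at 500 CPM in the 468 cells and 143 CPM in the members, Tyrobp at 195 and 56.1 CPM, Cd74 at 207 and 54.3 CPM and S100a8 at 443 and 153 CPM. Col1a1 was at 5522 CPM against 8058 CPM and Dpt at 280 CPM against 454 CPM. Cd3e was lower in the cells with Ptprc, at 105 CPM against 162 CPM. All these values are pooled over the libraries, and the 468 cells were not split by library. In the members Cd3e ranged from 36.4 to 259 CPM between libraries, and Col1a1, Dpt and Lyz2 also differed between them, as given above. The part of a different mix of libraries in these differences was not tested.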

How the results depend on the processing

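Of 71 alternative values 32 stayed within the spread or within 1.5 times the count and 39 moved. The share of members among kept cells, 3.34%, was 3.05% with at least 3 molecules of Dpt, 2.12% when the rule was applied at 2000 molecules per cell, 8.57% among cells with at least 10000 molecules and 4.20% when 1 molecule of Ptprc was allowed, and 2.41% to 4.38% without 1 library. The 5 genes higher than in Lrrc15-positive cells became 9 with at least 3 of Dpt, 17 with sums over reduced cells (of the 5, Apod and C3), 24 with 1 CPM added and 22 with at least 3 of Lrrc15, and 5 to 36 without 1 library, the most without library 4; the same settings gave 2, 4, 3 and 2 genes lower in place of 1 (Serpinb2 was not among them with reduced sums or with at least 3 of Lrrc15), and 1 to 4 without 1 library. The rule applied at 2000 molecules left 1 library to compare with Lrrc15-positive cells, where 526 genes were higher and 284 lower. The 13 genes higher than in fibroblasts with neither became 22 under that rule (1 shared), 27 with sums over reduced cells (7 shared), 31 with 1 CPM added and 24 among deep cells, fell to 10 with at least 3 of Dpt (6 shared), and were 13 to 31 without 1 library, the most without library 3 or 4. The 25 genes lower became 14 under that rule (7 shared), 13 with reduced sums (7 shared) and 51 with 1 CPM added, and 25 to 40 without 1 library, the most without library 2. The share with Pi16, 50.2%, was 69.6% under that rule, 83.7% without reduction, 40.9% at 1000 molecules and 46.7% in deep cells, and 38.8% to 55.4% without 1 library, the lowest without library 2. The settings for deep cells, Ptprc and 3 of Lrrc15 were chosen after seeing the data. The cause of these moves was not tested; leaving a library out reduces the number that must agree.

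No paired analysis was possible because no test was made between samples, to which the libraries are not linked; the classes were compared within each library. Depth limits the choice of cells, as cells without Dpt or Lrrc15 were shallower, and library 1 had too few members to compare. Without a link to treatment, libraries are values of single samples whose mice, treatment and handling cannot be told apart.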
